A study of Mus musculus with 12 samples.

Results

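Cytosolic ribosomal protein genes encode the proteins that, with the ribosomal RNAs, build the large and the small subunit of the ribosome. They were taken by name: a gene was a member where its single symbol in the platform annotation began with Rpl or Rps followed by a number, with Rplp and a number, or was Rpsa, leaving out the Rps6k kinases and symbols of pseudogenes. This gave 63 of 19938 genes, 38 with a large subunit symbol and 25 with a small subunit symbol. Of the 63, 54 are ribosomal proteins in the strict sense (33 large, 21 small), 7 are paralogs of such genes (Rpl3l, Rpl7l1, Rpl10l, Rpl32l, Rpl39l, Rps4l and Rps27l), and 2 are no subunits: Rps19bp1, which encodes a protein that binds Rps19, and Rps23rg1, a retrogene. The 54 are called the core genes here.

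RNA came from the anterior striata of adolescent male mice of the outbred Swiss CD-1 stock that went through conditioned place preference, a 10-day procedure in which an animal learns to link a compartment with a drug. The 4 groups received saline, ethanol, mephedrone (a synthetic cathinone stimulant) or mephedrone with ethanol, called the combination, 15 minutes before entry into the drug-paired compartment, and each group had 3 Affymetrix whole-transcript arrays. All groups, the saline controls included, shared the procedure. The labels give no dose, route, time of tissue collection or array batch, and they do not say whether each array held the RNA of a separate animal, and the p-values therefore speak only of variation among the arrays, part or all of which can be technical.

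Ribosomal proteins are built into each ribosome in fixed proportions, and cells make them in a coordinated way: their mRNAs are among the most abundant of a cell, and most begin with a run of pyrimidines at the cap, the 5′ terminal oligopyrimidine (TOP) motif, through which the mTOR pathway controls their translation. In neurons, local ribosomes and new protein synthesis take part in lasting synaptic change. The large subunit holds the peptidyl transferase centre and the exit tunnel, and the small subunit holds the decoding site and the path of the mRNA.

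The sequences around the annotated transcription starts were searched for such runs. RefSeq promoter windows (mouse build GRCm38.p6, 250 bases before to 50 after a start) were found for 51 of the 63 members, 60 windows in all. Runs were searched on the sense strand, which reads as the RNA does. A run of 8 or more C or T bases within 20 bases of the start was in 22 of the 60 windows (36.7%). Of all 32851 promoter windows of that length, 16% had such a run. The letters CCGGAAG, searched on both strands as a core string of ETS family factors, were in 20 windows (33.3%), against 8.86% of all. The letters TATAAA, also searched on both strands, were in 6 (10.0%), against 13.6%. These matches describe letters and show no binding or use. The following 6 windows run from 60 bases before to 20 after the start, 5′ to 3′ on the sense strand. The C or T runs near the start and CCGGAAG are in capitals. They belong to Rpl7a, the member with the smallest p-value below, to Rpl24 and Rpl27, which followed the other members most closely over the arrays, to Rpl4 and Rpl38, which went against them, and to Rps6, which hardly varied.

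Rpl7a: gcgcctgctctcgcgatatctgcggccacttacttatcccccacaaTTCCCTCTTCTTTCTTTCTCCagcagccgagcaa
Rpl24: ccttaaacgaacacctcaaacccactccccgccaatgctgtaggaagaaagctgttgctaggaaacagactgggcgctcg
Rpl27: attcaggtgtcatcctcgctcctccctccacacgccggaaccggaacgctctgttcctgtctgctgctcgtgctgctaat
Rpl4: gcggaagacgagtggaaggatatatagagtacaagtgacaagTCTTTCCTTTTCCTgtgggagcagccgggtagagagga
Rpl38: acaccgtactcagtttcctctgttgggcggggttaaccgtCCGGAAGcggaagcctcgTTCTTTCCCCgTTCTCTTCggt
Rps6: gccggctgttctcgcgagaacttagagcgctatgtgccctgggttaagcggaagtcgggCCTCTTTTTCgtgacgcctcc

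The windows lie at chr2:26910747-26910826 (+) for Rpl7a, chr16:55966215-55966294 (+) for Rpl24, chr11:101442185-101442264 (+) for Rpl27, chr9:64173327-64173406 (+) for Rpl4, chr11:114668520-114668599 (+) for Rpl38 and chr4:86857348-86857427 (-) for Rps6. The pyrimidine run is 21 bases long in Rpl7a, 14 in Rpl4, and 10 in Rps6 and in the first run of Rpl38. No run of 8 or more lies within 20 bases of the annotated start in Rpl24 and Rpl27.

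The deposited values are log2 differences: each probe set was centred on its median over the 12 arrays, so a value of 0.10 on an array lies 0.10 log2 units above that median, and levels of different genes cannot be set against each other. The number format still showed which side of 8 a probe set's log2 level had before centring. Of the 63 members 57 (90.5%) had all their probe sets between 8 and 16, against 49.7% of all genes. The 5 members with all probe sets between 4 and 8 were Rpl12, Rpl3l, Rpl10l, Rpl39l and Rps23rg1, of which Rpl3l is known from striated muscle and Rpl10l and Rpl39l from testis. Rps21 had 1 of its probe sets on each side.

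The members' levels were lower after each drug treatment than after saline by a few hundredths of a log2 unit in the median, and no member passed the test in any comparison. The members' medians on the saline arrays were 0.036, 0.010 and 0.014, those on the ethanol arrays 0.043, -0.0032 and -0.056. They were -0.0044, -0.0053 and 0.0012 on the mephedrone arrays, and -9e-04, -0.020 and -0.024 on the combination arrays. All 3 saline arrays thus lay above all 6 arrays of animals given mephedrone, while the ethanol arrays spanned the widest range, with ethanol replicate 1 the highest of the 12 and ethanol replicate 3 the lowest. Of the 63 members, 43, 39 and 44 (68.3%, 61.9% and 69.8%) lay above 0 on the saline arrays, against 50%, 42% and 41.5% of all genes. On the ethanol arrays 48, 29 and 11 did (76.2%, 46% and 17.5%, against 51.7%, 53.9% and 52.9%). On the mephedrone arrays 29, 27 and 32 did (46%, 42.9% and 50.8%, against 48.5%, 51.3% and 52.2%). On the combination arrays 29, 20 and 20 did (46%, 31.7% and 31.7%, against 55.7%, 48.8% and 51%). In bulk tissue, fewer cells of a type and less RNA per cell cannot be told apart.

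**Figure D1:**
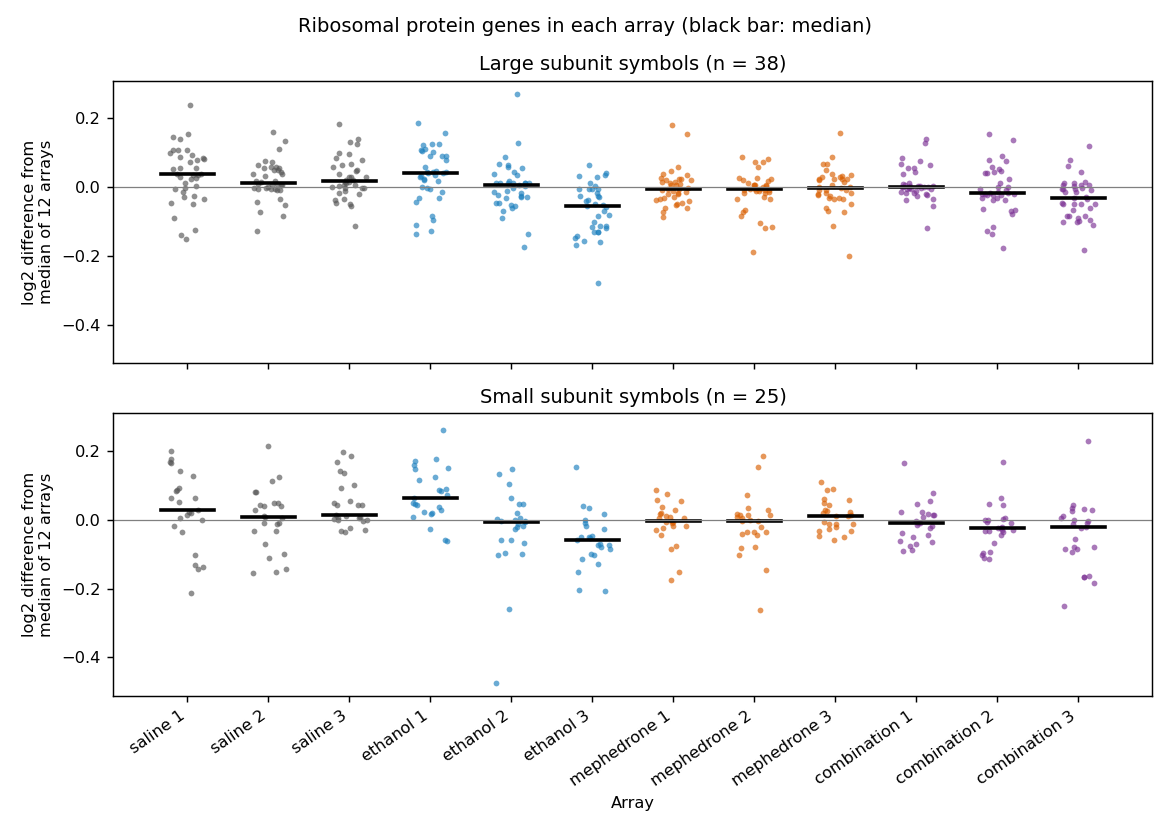
Level of each ribosomal protein gene on each of the 12 arrays, as the log2 difference from the median of the 12 arrays (y axis), with 38 large subunit symbols in the upper panel and 25 small subunit symbols in the lower one. Each point is 1 gene and the black bar the median of the genes. The medians of the large and the small subunit are highest on ethanol replicate 1 and lowest on ethanol replicate 3, and are at or above 0 on the 3 saline arrays.

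The arrays also differed in markers of other cells. Combination replicate 3 and ethanol replicate 1 stood apart, with SDs over all probe sets of 0.169 and 0.127 against 0.068 to 0.102 on the other arrays. The mean of 14 choroid plexus markers was 1.822 on combination replicate 3, 1.016 on saline replicate 2, 0.757 on ethanol replicate 1, 0.543 on mephedrone replicate 1 and 0.542 on combination replicate 2, and between -0.173 and -0.041 on the other 7 arrays. On combination replicate 3 the 13 oligodendrocyte markers were at 0.54, the 11 cortical neuron markers at 0.778 and the 13 striatal projection neuron markers at -0.331. All 13 measured striatal projection neuron markers, Drd1, Drd2 and Penk among them, had levels between 8 and 16 before centring. So had all 13 oligodendrocyte and all 12 astrocyte markers, but only 2 of the 14 choroid plexus markers. The part of these markers in the results was not tested. Counts of members below 0 or lower at an unadjusted p are given below also without both arrays that stood apart.

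Each drug group was first set against saline. The 3 comparisons share the saline arrays, so their directions are not independent of each other. Against saline, ethanol gave 45 of 63 members (71.4%) below 0, where 41.1% of all genes lay below 0. Mephedrone gave 45 (71.4%, against 44% of all genes) and the combination 46 (73%, against 43%). The median log2 difference of the members was -0.035 for ethanol, -0.044 for mephedrone and -0.042 for the combination, beside medians over all genes of 0.011, 0.0084 and 0.012. Over the genes with levels between 8 and 16, which the members mostly are, the medians were 0.024, 0.023 and 0.039. The median stayed below 0 for each of the 3 comparisons in every setting tried, each array left out in turn included, but came to -0.003 for ethanol without ethanol replicate 3, where 32 members lay below 0.

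By limma's moderated test, fitted over all 19938 genes with Benjamini-Hochberg adjustment, 0 members passed the adjusted threshold of 0.05 for ethanol against saline, where 0% of all genes passed, 0 for mephedrone, where again 0% passed, and 0 for the combination, where 0.01% passed (2 genes). The lowest adjusted p of a member was 0.997, 0.31 and 0.139. At an unadjusted p under 0.05, 6 members (9.52%) were lower with ethanol, against 0.908% of all genes, and 0 were higher, against 4.07%. With mephedrone 6 (9.52%) were lower, against 1.51%, and 3 (4.76%) higher, against 5.72%. With the combination 13 (20.6%) were lower, against 3.26%, and 2 (3.17%) higher, against 8.88%. The combination's 3 arrays lay wholly below the saline arrays for 20 members (31.7%, against 5.77% of all genes), the mephedrone arrays for 13 (20.6%, against 4.74%) and the ethanol arrays for 4 (6.35%, against 2.44%). They lay wholly above the saline arrays for 3 members (4.76%, against 11.7% of all genes), 5 (7.94%, against 9.99%) and 0 (against 6.1%) in this order.

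These counts of members lower at an unadjusted p rested in part on single arrays. For ethanol the count of 6 became 20 (31.7%, against 1.16% of all genes) when ethanol replicate 1 was left out, 3 (4.76%, against 0.682%) when saline replicate 3 was and 1 (1.59%, against 0.838%) when ethanol replicate 3 was. For mephedrone the count of 6 became 3 (4.76%) when saline replicate 1 or saline replicate 3 was left out, against 1.35% and 1.69% of all genes, and 2 (3.17%, against 1.22%) when mephedrone replicate 2 was. For the combination the count of 13 became 6 (9.52%, against 2.94%) when saline replicate 1 was left out and 8 (12.7%, against 2.35%) when combination replicate 3 was. Without both arrays that stood apart the counts were 19 (30.2%, against 1.9%) for ethanol, 8 (12.7%, against 2.88%) for mephedrone and 8 (12.7%, against 3.03%) for the combination. The counts of members below 0 moved less, between 32 and 49 for ethanol, 43 and 46 for mephedrone, and 44 and 48 for the combination. With each array left out in turn, 39.8% to 46.1% of all genes lay below 0. Without both arrays that stood apart the counts of members were 49 (77.8%, against 40.6% of all genes), 45 (71.4%, against 44%) and 44 (69.8%, against 44.7%). The 32 for ethanol, without ethanol replicate 3, are 50.8%, against 42% of all genes.

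The precision sets a bound on these differences. The median standard error of a member was 0.049 for a comparison of 3 with 3 arrays, and its 95% interval reached 0.11 log2 units to each side, which is 1.08-fold. A difference of the size of the members' median is within that interval for a typical single member.

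**Figure D2:**
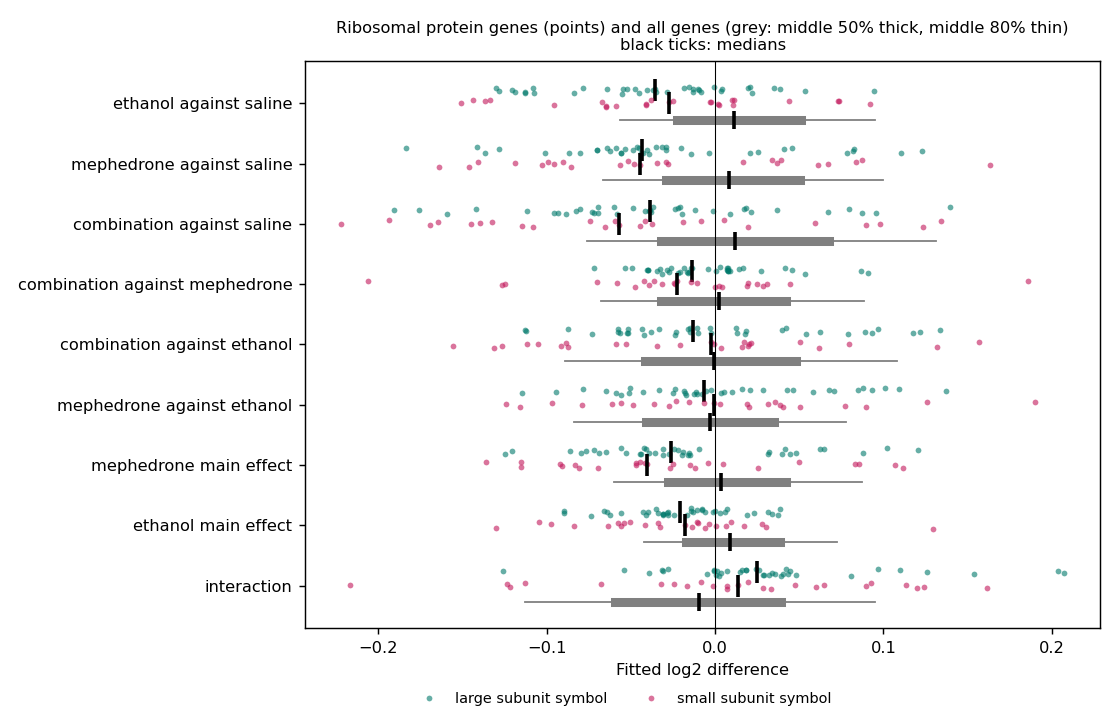
Fitted log2 difference (x axis) of each large subunit (green) and small subunit (pink) gene in the 9 comparisons (y axis), with the distribution over all genes as a grey bar (middle 50% thick, middle 80% thin) and black ticks at medians. In the 3 comparisons with saline both subunits' medians lie between -0.057 and -0.028, left of the all-gene medians of 0.0084 to 0.012, and the points overlap the spread of all genes.

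Over all members, the medians of the large and the small subunit were close to each other in every comparison. For ethanol against saline the median was -0.036 over the large and -0.028 over the small subunit genes, with 29 of 38 and 16 of 25 below 0. For mephedrone it was -0.043 and -0.044, with 29 of 38 and 16 of 25 below 0. For the combination it was -0.039 and -0.057, with 28 of 38 and 18 of 25 below 0. The difference of the medians, large minus small, was -0.0079, 0.0010 and 0.018 in this order. The large minus the small median of single arrays had an SD between replicate arrays of 0.010. That is another quantity and no error of the fitted differences. The sign of the difference of the medians depended on the setting. Among members with a single probe set it was -0.050, -0.077 and -0.015, so below 0 for mephedrone and the combination too. With array quality weights it was 0.0062 for ethanol. With each array left out in turn it stayed below 0 for ethanol and above 0 for the combination, and took both signs for mephedrone. On single arrays the large minus the small median lay between -0.020, on ethanol replicate 1, and 0.011. Over the 12 arrays the medians of the core large and the core small subunit genes had a Pearson correlation of 0.924. The 2 medians come from the same arrays and share each array's normalisation.

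The large subunit member with the smallest p-value was Rpl7a, which encodes a protein of the L7Ae family of RNA-binding proteins. It lay at 0.15, 0.16 and 0.14 on the saline arrays, 0.11, 0.011 and -0.027 on the ethanol arrays, -0.015, -0.028 and -0.061 on the mephedrone arrays and 0.0016, -0.078 and -0.0056 on the combination arrays. The 3 saline arrays were the highest of the 12 and differed little among themselves, and each group given mephedrone lay wholly below saline and below ethanol replicate 1. The saline mean was 0.15 ± 0.0092 (SD, n = 3), the ethanol mean 0.030 ± 0.069, the mephedrone mean -0.035 ± 0.024 and the combination mean -0.027 ± 0.044. On the log2 scale it was lower than in saline by 0.12 (SE 0.040) in ethanol, by 0.18 (SE 0.040) in mephedrone and by 0.18 (SE 0.040) in the combination, with adjusted p of 0.997, 0.31 and 0.139 in limma. Its 3 probe sets had a median correlation of 0.872 over the 12 arrays, and all 3 were lower in the combination than in saline, by 0.22, 0.17 and 0.14. RefSeq names 14 pseudogenes of Rpl7a, and probes that match such copies cannot be told apart here.

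Rpl24 lies at the bridge between the subunits, and its mouse mutant is known as Belly spot and tail. It lay at 0.15, 0.077 and 0.067 on the saline arrays, 0.10, -0.016 and -0.11 on the ethanol arrays, -0.019, 0.072 and -0.016 on the mephedrone arrays and -0.013, -0.066 and -0.10 on the combination arrays. The combination arrays lay wholly below the saline arrays, while the ethanol arrays ran from above 2 of the saline arrays to the lowest value of all. The combination was lower than saline by 0.16 (SE 0.054, adjusted p = 0.286). Rpl13 had a like difference between combination and saline, -0.14 (SE 0.049, adjusted p = 0.296), with saline arrays at 0.11, 0.018 and 0.084 and combination arrays at 0.0028, -0.12 and -0.10.

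Rpl10a forms the L1 stalk, which moves with the tRNA that leaves the ribosome. It lay at 0.11, 0.063 and 0.039 on the saline arrays, -0.11, 0.013 and -0.084 on the ethanol arrays, 0.0072, -0.017 and 0.033 on the mephedrone arrays and 0.0022, -0.031 and -0.10 on the combination arrays. It was the member with the smallest p for ethanol against saline, -0.13 (SE 0.042, adjusted p = 0.997), and the ethanol arrays did not overlap with the saline arrays. Rpl34 was at -0.13 (SE 0.048) in the same comparison, with an adjusted p of 0.997.

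The stalk proteins Rplp0, Rplp1 and Rplp2 recruit the GTPase factors of translation to the large subunit. Rplp0 lay at 0.095, 0.11 and 0.011 on the saline arrays, 0.034, -0.032 and -0.15 on the ethanol arrays, -0.073, -0.066 and -0.030 on the mephedrone arrays and 0.037, 0.011 and 0.044 on the combination arrays. The mephedrone arrays lay below all saline arrays, and the combination arrays lay above the mephedrone arrays and overlapped with the saline arrays. Mephedrone against saline was -0.13 (SE 0.046, adjusted p = 0.591), and the combination against saline -0.042 (SE 0.046). Rplp0 had the smallest p of the members for the interaction, 0.21 (SE 0.066), with an adjusted p of 1. Rplp1 and Rplp2 were lower with mephedrone than with saline by 0.064 (SE 0.060) and 0.080 (SE 0.047), within the spread of the arrays.

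Rpl41, the shortest ribosomal protein, lay at 0.079, 0.0082 and 0.022 on the saline arrays, 0.048, 0.055 and 0.065 on the ethanol arrays, -0.041, -0.0082 and -0.018 on the mephedrone arrays and -0.024, -0.036 and -0.11 on the combination arrays. All 6 arrays of mice given mephedrone lay below 0 and all 6 others above 0. It was the member whose 6 mephedrone arrays lay wholly below the 6 others, 1 of 63 (1.59%), against 0.361% of all genes, and 0 members lay wholly above, against 0.908%. Its 3 probe sets gave nearly the same values on every array, with a correlation of 1, and so count as 1 measurement.

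Some large subunit genes lay the other way. Rpl4, whose loop lines the exit tunnel, lay at -0.15, -0.083 and -0.019 on the saline arrays, 0.043, -0.053 and 0.042 on the ethanol arrays, 0.048, 0.027 and 0.0057 on the mephedrone arrays and -0.0057, 0.042 and -0.050 on the combination arrays. All saline arrays lay below all mephedrone arrays, a difference of 0.11 (SE 0.044, adjusted p = 0.626). Rpl38, known from the mouse mutant Tail-short, lay at -0.14, -0.0096 and -0.047 on the saline arrays, -0.14, 0.089 and -0.082 on the ethanol arrays, 0.0088, 0.0075 and 0.16 on the mephedrone arrays and 0.075, 0.15 and -0.0041 on the combination arrays. The 6 mephedrone-treated arrays lay above all saline arrays, and ethanol replicate 2 lay among them. Rpl6 was higher in the combination than in saline by 0.096, with an unadjusted p of 0.0216 in limma, which does not pass after adjustment.

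Among the small subunit genes Rps29, Rps28 and Rps12 had the smallest p-values for the combination. Rps29, a small zinc-binding protein of the small subunit head, lay at 0.17, 0.029 and 0.17 on the saline arrays, 0.17, 0.046 and -0.053 on the ethanol arrays, -0.0074, -0.079 and 0.011 on the mephedrone arrays and -0.019, -0.11 and -0.084 on the combination arrays. Both groups given mephedrone lay wholly below saline, and the ethanol arrays overlapped with both sides. The difference from saline was -0.15 (SE 0.059, adjusted p = 0.645) with mephedrone and -0.19 (SE 0.059, adjusted p = 0.244) with the combination. Its 4 probe sets had a median correlation of 0.972, and all were lower in the combination, by 0.17 to 0.20.

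Rps28, at the exit of the mRNA path, lay at 0.086, 0.11 and 0.054 on the saline arrays, 0.17, 0.044 and -0.081 on the ethanol arrays, -0.0077, 0.014 and -0.051 on the mephedrone arrays and -0.089, -0.11 and -0.055 on the combination arrays. The groups were ordered saline, mephedrone and combination without overlap, while the ethanol arrays covered most of the range. The combination was lower than saline by 0.17 (SE 0.054, adjusted p = 0.266), and its 7 probe sets gave differences of -0.22 to -0.14.

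Rps12, in the beak of the small subunit, lay at 0.0051, 0.21 and 0.20 on the saline arrays, 0.15, -0.067 and -0.071 on the ethanol arrays, 0.074, -0.0053 and 0.060 on the mephedrone arrays and -0.043, -0.025 and -0.18 on the combination arrays. It had the largest difference of any member between combination and saline, -0.22 (SE 0.073, adjusted p = 0.272), and the lowest saline array lay just above the highest combination array. The difference came to -0.17 without combination replicate 3 and to -0.29 without saline replicate 1. Rps12 had 14 probe sets with a median correlation of 0.975, and 23 pseudogenes named in RefSeq, so its value may hold signal of copies.

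Rps14 and Rps21 were the small subunit members with the smallest p for ethanol against saline, at -0.14 (SE 0.058) and -0.14 (SE 0.058), both with an adjusted p of 0.997. Rps14 is known for its loss in the human 5q- syndrome. Rps21 was also lower with mephedrone, by 0.16 (SE 0.058, adjusted p = 0.58). Its 2 probe sets correlated at 0.549, and they lay on different sides of a log2 level of 8. The third small subunit symbol by p for ethanol was Rps19bp1, no subunit, which was higher by 0.092 (SE 0.050, adjusted p = 1).

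**Figure D3:**
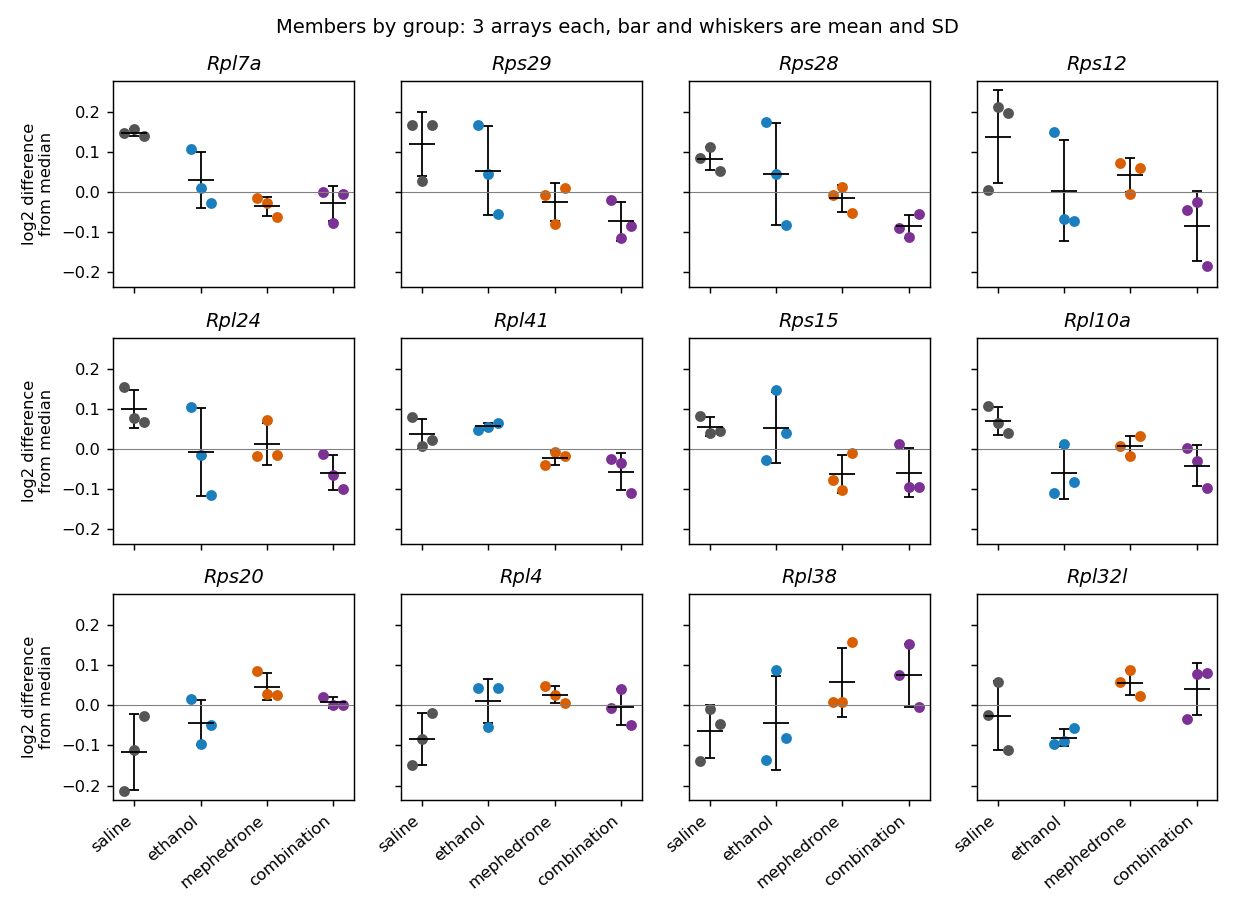
Level of 12 named members (log2 difference from the median of 12 arrays, y axis) in the 4 groups (x axis). Points are arrays, the horizontal bar is the mean of 3 arrays and the whiskers are the SD. For Rpl7a, Rps29, Rps28, Rps12, Rpl24, Rpl41, Rps15 and Rpl10a the combination arrays all lie below the saline arrays. For Rps20 and Rpl38 they all lie above them, and for Rpl4 and Rpl32l they overlap.

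Rps20 lay opposite to most members. Its protein sits in the small subunit head. It lay at -0.21, -0.11 and -0.026 on the saline arrays, 0.017, -0.10 and -0.050 on the ethanol arrays, 0.086, 0.028 and 0.026 on the mephedrone arrays and 0.022, -2e-04 and 2e-04 on the combination arrays. All saline arrays lay below all 6 arrays with mephedrone. The difference from saline was 0.16 (SE 0.048, adjusted p = 0.467) with mephedrone and 0.12 (SE 0.048, adjusted p = 0.333) with the combination. Rps20 rests on 1 probe set, as do Rpl4, Rpl34, Rps19 and Rpl32l among the other named members.

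Rpsa, which doubles as the laminin receptor, and Rps6, the substrate of the S6 kinases, were the other members described whatever their values. Rpsa lay at 0.13, -0.0090 and 0.093 on the saline arrays and 0.0081, -0.030 and -0.16 on the combination arrays, a difference of -0.13 (SE 0.073, adjusted p = 0.502). Its 5 probe sets did not give 1 pattern: the lowest correlation between a pair was -0.048, and their differences for all mephedrone arrays against the others ran from -0.17 to 0.045. Rps6 lay between -0.035 and 0.054 on all 12 arrays, and its differences from saline were 0.0021, 0.034 and 0.019 for ethanol, mephedrone and the combination (SE 0.034 each). Its total mRNA is what was measured, not the phosphorylation by which Rps6 is known.

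A second pair of comparisons used all 12 arrays as a 2 by 2 layout. The main effect of mephedrone compares the mean of both groups given mephedrone with the mean of both groups without it, and the main effect of ethanol does the same for ethanol. By limma 0 members passed for mephedrone, where 0.115% of all genes passed (23 genes), and 0 for ethanol, where 0% passed. The lowest adjusted p of a member was 0.112 and 0.941. For mephedrone 45 members (71.4%) lay below 0, against 46.8% of all genes, with a median of -0.027 beside 0.0038 over all genes. For ethanol 47 (74.6%) lay below 0, against 41.2%, with a median of -0.018 beside 0.0088.

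At an unadjusted p under 0.05, 8 members (12.7%) were lower for mephedrone, against 4.28% of all genes, and 5 (7.94%) higher, against 8.36%. The 8 became 17 (27%, against 3.83%) when ethanol replicate 3 was left out and 5 (7.94%, against 3.52%) when ethanol replicate 2 was. Without both arrays that stood apart they became 5 (7.94%), which is near the share of all genes there, 5.75%. For ethanol 4 (6.35%) were lower, against 1.13%, and 0 higher, against 3.44%. The 4 became 12 (19%, against 1.1%) when ethanol replicate 1 was left out, 10 (15.9%, against 1.39%) when both arrays that stood apart were, and 1 (1.59%, against 1.23%) when ethanol replicate 3 was. They became 2 (3.17%) when ethanol replicate 2, mephedrone replicate 2, mephedrone replicate 3 or combination replicate 3 was left out, against 1.67%, 0.888%, 0.787% and 0.933% of all genes. Without both arrays that stood apart 41 members (65.1%, against 49.6%) lay below 0 for mephedrone and 48 (76.2%, against 42.2%) for ethanol.

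For the mephedrone main effect Rpl7a was lower by 0.12 (SE 0.028, adjusted p = 0.112), and its adjusted p lay between 0.0544 and 0.218 over the settings tried. Rpl41 was lower by 0.086 (SE 0.025, adjusted p = 0.155). Rps15, which reaches the decoding site, was lower by 0.12 (SE 0.035, adjusted p = 0.177), with values of 0.083, 0.040 and 0.043 on the saline arrays and -0.077, -0.10 and -0.011 on the mephedrone arrays, while ethanol replicate 1 at -0.028 and combination replicate 1 at 0.012 overlapped. Rps29 was lower by 0.14 (SE 0.042, adjusted p = 0.18). On the other side stood Rps20 at 0.11 (SE 0.034, adjusted p = 0.199) and the paralog symbol Rpl32l at 0.10 (SE 0.034, adjusted p = 0.215).

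For the ethanol main effect Rpl10a was at -0.090 (SE 0.029), Rpl24 at -0.090 (SE 0.038) and Rpl34 at -0.074 (SE 0.034) among the large subunit genes. Rps12 was at -0.13 (SE 0.051), Rps19 at -0.098 (SE 0.041) and Rps2 at -0.064 (SE 0.031) among the small subunit genes. The adjusted p was 0.941 for each. Rps19, the first gene linked to Diamond-Blackfan anaemia, lay at -0.018, 0.12 and 0.0026 on the saline arrays, 0.15, -0.0032 and -0.0026 on the ethanol arrays, 0.020, 0.18 and 0.088 on the mephedrone arrays and -0.091, -0.068 and -0.17 on the combination arrays. The combination arrays were the 3 lowest of the 12, and the other groups overlapped.

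The drug groups were also set against each other, and the interaction was fitted. Between the combination and mephedrone the members' median was -0.014 (37 of 63 below 0, 58.7%, against 48.1% of all genes). Between the combination and ethanol it was -0.011 (37 below 0, 58.7%, against 50.4%), and between mephedrone and ethanol -0.0056 (34 below 0, 54%, against 52.5%). By limma 0 members passed in these 3 comparisons, where 0%, 0.0251% and 0% of all genes passed, with 2, 7 and 4 members at an unadjusted p under 0.05 (3.17%, 11.1% and 6.35%, against 3.31%, 9.73% and 6.28% of all genes). For the interaction, the ethanol difference with mephedrone minus that without, the median was 0.020 beside -0.0093 over all genes, 19 members lay below 0 (30.2%, against 55.5%), 0 members passed where 0% of all genes passed, and 4 (6.35%, against 3.54%) had an unadjusted p under 0.05. The F test for any difference among the 4 groups passed 0 members, where 0.00502% of all genes passed, and 10 (15.9%, against 8.35%) had an unadjusted p under 0.05. The members' median turned to 0.0015 for the combination against mephedrone without combination replicate 3, to 0.010 for the combination against ethanol and 0.032 for mephedrone against ethanol without ethanol replicate 1, and to -0.0066 for the interaction without ethanol replicate 3.

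The members did not vary as 1 block. The correlation of each core gene with the median of the other core genes over the 12 arrays had a median of 0.583, and 31 of 54 lay above 0.5. The share of all genes above 0.5 is not given, so the count cannot be read as particular to the members. Of the core genes the highest were Rpl24 at 0.881, Rpl27 at 0.877 and Rps13 at 0.866. Of the 54, 9 lay below 0: Rpl23, Rpl4, Rpl38, Rpl6 and Rpl30 of the large subunit, Rps20, Rps15a and Rps7 of the small subunit, and Rps25, whose value rounded to 0. Of these, Rpl4, Rpl30, Rps20 and Rps15a rest on 1 probe set each. Between pairs of core genes the median correlation was 0.279. These correlations are descriptions over 12 arrays that share their normalisation and the groups.

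The correlations differed with the number of probe sets. Core genes with several probe sets had a median correlation with the rest of 0.634 (38 genes), and those with 1 probe set of 0.423 (16 genes). The SD within groups had a median of 0.060 over the members, beside 0.066 over all genes and 0.072 over genes with levels between 8 and 16. It was 0.057 for members with several probe sets and 0.072 for those with 1, and 0.057 for the large and 0.069 for the small subunit. The 5 genes outside the members whose values followed the core median most closely were Taf10 (0.913), Ddx51 (0.883), Mrps18b (0.881), Znrd2 (0.875) and Olfr344 (0.873), as Pearson correlations over the 12 arrays. They are the highest among all genes outside the members, and Taf10 lay above the highest core gene, Rpl24 at 0.881.

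**Figure D4:**
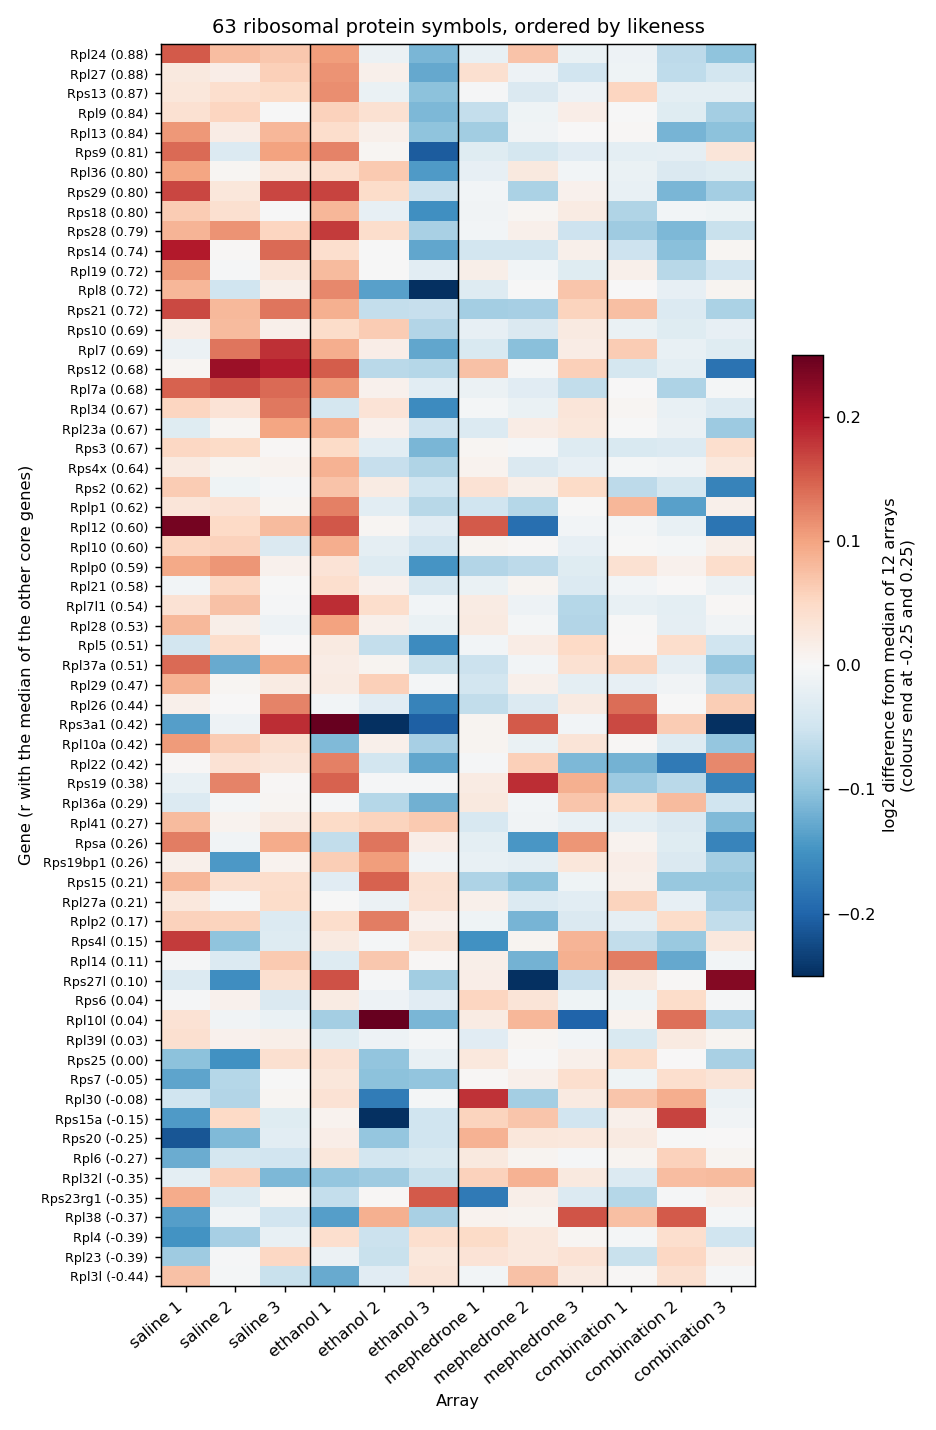
Values of all 63 members (rows) on the 12 arrays (columns), as log2 differences from the median of 12 arrays, with red above and blue below 0 and colours ending at -0.25 and 0.25. Rows are ordered by their correlation with the median of the other core genes, from 0.88 for Rpl24 to -0.44 for Rpl3l, and the upper rows are mostly red on the saline arrays and ethanol replicate 1 and blue on ethanol replicate 3.

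By SD over the 12 arrays, the most variable large subunit members were Rpl12 (0.127), Rpl10l (0.124) and Rpl8 (0.105), and the least variable Rpl39l (0.023) and Rpl21 (0.027). In the small subunit they were Rps3a1 (0.213), Rps27l (0.129) and Rps12 (0.118), against Rps6 (0.028) and Rps4x (0.042). Rps3a1, with 1 probe set, ran from -0.47 on ethanol replicate 2 to 0.26 on ethanol replicate 1, so that its spread lay within a group and not between groups. Rpl8 ran from -0.28 on ethanol replicate 3 to 0.12 on ethanol replicate 1. Rpl12 ran from -0.19 to 0.24, with saline replicate 1 the highest.

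Probe sets that share a symbol gave mostly the same pattern. The 63 members had 219 probe sets, 24 members having 1 and 39 several, up to 14. Among the 39, the median correlation between the probe sets of a gene had a median of 0.929 and a range from 0.219 to 1. It was 0.979 in Rpl38, 0.966 in Rpl10a and 0.956 in Rps28, and lowest in Rps4l (0.219), Rpl23 (0.222) and Rps21 (0.549). When probe sets were tested in place of genes, 0 of the 219 passed in any of the 9 comparisons by limma, and the number at an unadjusted p under 0.05 was 14 (6.39%, against 4.99% of all probe sets) for ethanol against saline, 21 (9.59%, against 7.47%) for mephedrone and 61 (27.9%, against 13.3%) for the combination. It was 44 (20.1%, against 13.4%) for the mephedrone main effect and 21 (9.59%, against 5.25%) for that of ethanol. For the combination against mephedrone it was 4 (1.83%, against 3.68%), for the combination against ethanol 15 (6.85%, against 10.2%), for mephedrone against ethanol 10 (4.57%, against 6.1%) and for the interaction 6 (2.74%, against 3.43%). Probe sets of a gene are not independent, and a gene with 14 of them weighs 14 times in these counts.

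**Figure D5:**
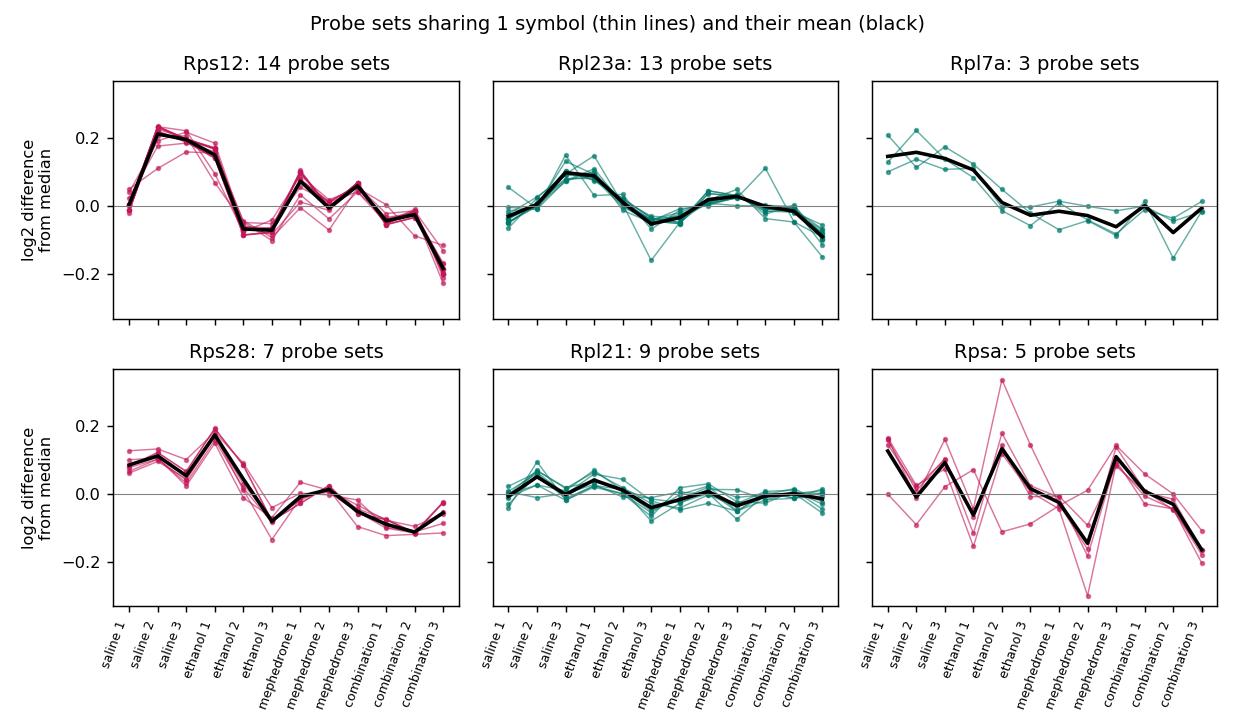
Values of single probe sets (thin lines) and their mean (black) on the 12 arrays (x axis), as log2 differences from the median of 12 arrays (y axis), for 6 members with several probe sets. The 14 probe sets of Rps12 and the 7 of Rps28 run closely together, while those of Rpsa part on ethanol replicate 2 and mephedrone replicate 2.

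The paralogs, which replace a core protein in some tissues or have taken on other tasks, did not pass the test in any comparison. For mephedrone against saline Rpl32l was at 0.082 (SE 0.048), Rpl3l at 0.026 (SE 0.047), Rpl7l1, a nucleolar paralog, at -0.056 (SE 0.048), Rpl10l at -0.035 (SE 0.10), Rpl39l at -0.032 (SE 0.031), Rps27l, a p53-induced paralog of Rps27, at -0.052 (SE 0.089) and Rps4l at -0.035 (SE 0.073). Their lowest adjusted p in this comparison was 0.801, for Rpl32l, with the next, 0.918, for Rpl7l1. Rps23rg1 was at -0.086 (SE 0.063). Of core genes known to have a paralog, Rpl10 had a mephedrone main effect of -0.016, Rpl22 of -0.042 and Rpl36a of 0.065, and none passed. Rpl3, Rpl39 and Rps27 are read only by probe sets with several symbols.

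Other genes of ribosome production and translation were described beside the members for the mephedrone main effect, and 0 of their genes passed in any comparison. Fau, the ribosomal protein gene under another symbol that was measured, was at -0.040 (SE 0.034, adjusted p = 0.713). Of 34 measured translation factors 25 lay above 0 and 9 below, with a median of 0.037. Eif3c, a subunit of initiation factor 3, was at 0.11 (SE 0.029, adjusted p = 0.124), and Etf1, the release factor, at 0.13 (SE 0.039, adjusted p = 0.172). Of 70 genes of ribosome assembly and RNA polymerase I 47 lay above 0 and 23 below, with a median of 0.043. Gnl2, a nucleolar GTPase, was at 0.15 (SE 0.026, adjusted p = 0.0624), and Npm1, nucleophosmin, at 0.19 (SE 0.038, adjusted p = 0.0751). In this comparison 46.8% of all genes lay below 0, and 39% of the genes with levels between 8 and 16. The medians of the translation factors and of the assembly genes lay above that of all genes, 0.0038. They also lay above that of the genes with levels between 8 and 16, 0.018. The median of the ribosomal proteins, -0.027, lay below both.

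Of 42 genes of mTOR and MYC control 23 lay above 0 and 19 below in the same comparison, with a median of 0.010. Fnip1, a partner of folliculin, was at 0.15 (SE 0.036, adjusted p = 0.124) and Sesn1, an inhibitor of mTOR complex 1, at 0.14 (SE 0.034, adjusted p = 0.128). Of 13 p53 targets 8 lay above 0 and 5 below, with a median of 0.011, with Zmat3 at -0.096 (SE 0.037, adjusted p = 0.29) and Ccng1 at 0.17 (SE 0.076, adjusted p = 0.383). Of 77 mitochondrial ribosomal protein genes, whose proteins serve the ribosome of the mitochondrion, 50 lay above 0 and 27 below, with a median of 0.026. Mrpl18 was at 0.18 (SE 0.038, adjusted p = 0.0894) and Mrps33 at 0.11 (SE 0.026, adjusted p = 0.113). Beside these counts, 46.8% of all genes lay below 0, with a median of 0.0038. Of the genes with levels between 8 and 16, 39% did, with a median of 0.018. None of these lists was tested as a whole.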

How the data were processed

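RNA was measured on 12 arrays, 4 groups of 3. The deposited table holds log2 values; the authors' steps are RMA on genome build mm8, per the submitters' processing notes, and centring of each probe set on its median over the 12 arrays, found by checking the deposited values. Levels before centring were classed from the step between deposited numbers. Probe sets with 1 symbol in the platform annotation (21789 of 28853) were averaged per gene. No array was left out or renormalised. Group means were fitted with limma 3.58.1 (lmFit, eBayes) in R 4.3.3 with 8 residual degrees of freedom, and p-values were adjusted by Benjamini-Hochberg over 19938 genes at a threshold of 0.05. The script was tested on simulated data. Marker and pathway lists came from textbook knowledge. Named were, per comparison with saline and per main effect, the 3 members of each subunit with the smallest p, those with the highest and lowest SD, the stalk proteins, Rpsa, Rps6 and paralogs, and 2 genes per pathway list; Rpl6, Rpl38, Rps13, Rpl27 and the genes that went against the others were chosen after their values were seen. The members and lists were chosen with earlier results of these data known. Alternatives were normalisation, array weights, subsets of genes and arrays, and the replicate block.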

Additional observations from a re-analysis of the deposited data

How the results depend on the processing

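The count of members called was 0 in all settings tried and all comparisons, the replicate block included, under which the lowest adjusted p of a member was 0.133 in limma (mephedrone main effect). Same-numbered arrays of different groups had correlations of their deviations from -0.281 to 0.427, with a median of 0.027 and 7 of 18 pairs over 0.1. Arrays of different groups and different numbers had a median of 0.026, with 13 of 36 pairs over 0.1. The replicate numbers thus showed no pairing by this measure, which cannot tell whether samples were handled in blocks. Over all genes the calls for the mephedrone main effect were 23, 6 with the block, 9 after quantile normalisation, 213 without both arrays that stood apart, and 2 (without saline replicate 1) to 356 (array quality weights).

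Medians and counts that moved by more than the spread between replicates were as follows, and the cause was not tested. With array quality weights the members' median was 0.027 for the combination against ethanol, 0.034 for mephedrone against ethanol and 0.056 for the interaction, and large minus small was 0.0062 for ethanol against saline, 0.031 for the combination against saline and -0.0046 for the mephedrone main effect. Without both arrays that stood apart the medians were 0.021 for the combination and 0.032 for mephedrone against ethanol, and large minus small was 0.040 for the combination against saline, -0.019 for mephedrone against ethanol and -0.0043 for the mephedrone main effect. There the members lower at an unadjusted p, an alternative chosen after seeing the data, numbered 19 (30.2%, against 1.9% of all genes) for ethanol against saline, 8 (12.7%, against 3.03%) for the combination, 5 (7.94%, against 5.75%) for the mephedrone main effect and 10 (15.9%, against 1.39%) for the ethanol main effect. Large minus small was -0.0049 for the mephedrone main effect after quantile normalisation and 6e-04 for the combination against ethanol with medians of probe sets. With genes at 8 or more it was -0.010 for mephedrone against saline and -0.0024 for its main effect. Over core genes it was 0.0057 for ethanol against saline, -0.027 for mephedrone against ethanol and 0.0096 for the ethanol main effect. With single-probe-set members it was -0.050, -0.077 and -0.015 for ethanol, mephedrone and the combination against saline, -0.042 for the combination and -0.031 for mephedrone against ethanol, -0.012 and -0.016 for the mephedrone and ethanol main effects, and -0.022 for the interaction.

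Leaving out each array in turn, the members' median ranged from -0.059 to -0.003 for ethanol, -0.045 to -0.035 for mephedrone and -0.055 to -0.035 for the combination against saline, from -0.018 to 0.0015 for the combination against mephedrone, -0.047 to 0.010 for the combination and -0.036 to 0.032 for mephedrone against ethanol, -0.046 to -0.017 and -0.031 to -0.0099 for the mephedrone and ethanol main effects, and -0.0066 to 0.047 for the interaction. Large minus small ranged, in the same order, from -0.037 to -0.0015, -0.020 to 0.025, 0.011 to 0.040, -6e-04 to 0.012, -0.024 to 0.018, -0.019 to 0.010, 3e-04 to 0.013, -0.0031 to 0.011, and -0.012 to 0.036. Against saline, members lower at an unadjusted p ranged from 1 (1.59%, against 0.838% of all genes) to 20 (31.7%, against 1.16%) for ethanol. For mephedrone the range was 2 (3.17%, against 1.22%) to 9 (14.3%, against 1.41%). For the combination it was 6 (9.52%, against 2.94%) to 15 (23.8%, against 3.21%). For the mephedrone main effect it was 5 (7.94%, against 3.52%) to 17 (27%, against 3.83%). For the ethanol main effect it was 1 (1.59%, against 1.23%) to 12 (19%, against 1.1%). Members below 0 ranged, in the same order, from 32 to 49, 43 to 46, 44 to 48, 40 to 47 and 40 to 52. At these extremes 50.8% to 82.5% of the members lay below 0, against 40.1% to 48.8% of all genes. None of the 30 differences chosen by smallest p changed sign. That choice was made on the same arrays and favours a stable sign, so this lends the differences no weight. Signal over background is not known from a centred table, and the number of arrays limits the precision.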

Other observations

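Further ribosomal protein symbols were read only by probe sets that carry several symbols, and so were not members. There were 239 such probe sets with a symbol of the pattern, and 20 symbols were found only there, Rps27 and Rpl11 among them. For the mephedrone main effect 13 of the 20 lay below 0, with a median log2 difference of -0.022, where 46.8% of all genes lay below 0. For the combination against saline 15 lay below 0, with a median of -0.050, where 43% of all genes did. Rps27 and Rps27rt had the same values, and so had Rpl37 and Rpl37rt. All of these lay below 0 in both comparisons, so the counts hold the same measurement more than once. Rps27 was at -0.15 and -0.21 in these comparisons, and Rpl11 at -0.072 and -0.10, among the lowest of the 20. Other symbols lay above 0 in both: Rpl15 at 0.079 and 0.068, Rpl3 at 0.052 and 0.080, and Rpl17, Rpl39 and Rpl13a by less. These probe sets may read several genes, and their values were not tested.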
